A study of Mus musculus with 8 samples.

Results

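The genes described here are the ligands and receptors of axon guidance, taken by symbol: the semaphorins of classes 3 to 7, the plexins and neuropilins, the ephrins and Eph receptors, the Slits and Robos, and the netrins with Dcc, Neo1 and the Unc5 receptors. The symbols matched 70 of the 24538 genes counted, and 60 of the 70 had enough counts to be tested. RNA sequencing was done on 8 libraries from the skin of newborn mice (postnatal day 0), all of genotype Atoh1-GFP, in which GFP marks cells that express the Merkel cell factor Atoh1; the labels do not say how the reporter was made. Paw and back skin were each dissociated with collagenase and then trypsin and sorted into Merkel cells (GFP+, EpCAM+, Sca1-) and the epidermal cells that the submitters call IFE (GFP-, EpCAM+, Sca1+), giving the groups paw Merkel, paw IFE, back Merkel and back IFE with 2 libraries each. RNA was amplified before the libraries were made. Separate animals behind the 2 libraries of each group are not stated, so the p-values below measure the spread between libraries, which may be technical.

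Guidance cues steer growing axons by attraction or repulsion, and the same molecules act in cell sorting, adhesion and migration in epithelia. Semaphorins signal through plexins, and most secreted class 3 semaphorins also need a neuropilin. Ephrins are bound to the cell surface and are read by Eph receptors on touching cells, Slits are secreted ligands of Robo receptors, and netrins are read by Dcc, neogenin (Neo1) and Unc5 receptors. Merkel cells are epidermal touch cells that are contacted by sensory axons.

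Total counts per library ran from 11139306 to 26195076, and 53 to 65 of the 70 members had at least 1 count in a library. The sorts carried their markers. All 8 Merkel markers measured were higher in Merkel cells at both sites, with summed levels of 2880 to 4042 CPM (counts scaled to library size) in Merkel libraries and 8.96 to 18.2 in IFE libraries. All 6 basal keratinocyte markers were lower, with sums of 2977 and 1680 CPM in paw Merkel, 959 and 1371 in back Merkel, and 21801 to 38105 in IFE libraries. The paw Merkel libraries were the least alike of any group: their median absolute log2 difference was 1.24 over the 60 tested members, against 0.58 to 0.64 in the other groups, and summed suprabasal keratinocyte markers were 5220 CPM in replicate 1 and 410 in replicate 2 (5 of 6 such markers were in the files). The library labelled back IFE 2 carried the paw pattern of Hox genes, which record body position: over 28 Hox genes it correlated at -0.08 with back IFE 1 and at 0.75 and 0.88 with the paw IFE libraries. The main results of the back comparison and the comparisons between sites are given with and without it. Without it the back IFE group is back IFE 1 alone. The sum of the 8 endothelial markers was 11.5 and 10.7 CPM in back Merkel, mostly Pecam1 (8.75 and 9.97), and 0.645 to 3.89 in the other libraries; Cldn5 and Tie1 were at 0 in all 8. Summed immune markers were 1152 and 187 CPM in back IFE, 56.2 and 39.5 in paw IFE and 2.03 to 8.15 in Merkel libraries. Pericyte markers summed to 16.9 to 39.5 in Merkel and 78.1 to 235 in IFE libraries, mostly Cspg4 and Notch3 (179 and 52.4 CPM in paw IFE 1). In IFE libraries Acta2 was at 1.57 to 7.56 CPM, Pdgfrb at most at 0.0763, and Rgs5 at 0 except for 1.85 in back IFE 1. Summed fibroblast markers were 77.9 to 170.5 CPM in Merkel and 92.6 to 437 in IFE libraries. In back Merkel the sum was mostly Col1a2 (165 and 74.0 CPM), with Col3a1 at 0.228 and 0.195 and Dcn at 5.10 and 3.61. How these marker sums bear on the values below was not tested. In sorted bulk samples, fewer cells of a type and less RNA per cell cannot be told apart.

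Merkel cells differed from IFE cells in 20% of the tested guidance genes in the paw and 25% in the back, and 9 members passed in the same direction at both sites. The secreted cues Sema3e and Slit2 and the receptors Epha5 and Robo2 were higher in Merkel cells of paw and back. The semaphorins Sema3c and Sema3f, the plexins Plxna1 and Plxnb2 and the ephrin Efna1 were lower at both. In the paw, 12 of the 60 tested members passed (5 higher and 7 lower, edgeR quasi-likelihood test, Benjamini-Hochberg adjusted p under 0.05 among 15151 genes), where 6.21% of all tested genes passed, 4.28% higher and 1.93% lower. In the back, 15 of the 60 passed (6 higher and 9 lower), where 15.4% of all tested genes passed, 7.99% higher and 7.45% lower. The 9 shared members were 75% of those that passed in the paw and 60% of those that passed in the back. The same share was not taken over all called genes, so it is not read as a trait of guidance genes. Both Merkel libraries lay above both IFE libraries for 12 tested members in the paw and below for 21, beside 24.8% and 28.7% of all tested genes; in the back this held for 22 and 21 members, beside 29.1% and 32.8%. The median log2 fold change of tested members was -0.55 in the paw and 0.32 in the back, beside -0.04 and -0.06 over all genes tested. Without back Merkel 2, 9 members passed in the back, with 1307 genes called over the whole table in place of 2338. Without paw Merkel 2 the paw count was 4, without paw IFE 2 it was 5, and without paw Merkel 1 it was 21; calls over all genes moved with them, to 682, 561 and 2369 from 941.

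Without the library labelled back IFE 2, 15 members again passed in the back (10.9% of all genes tested in that fit), 11 of them among the first 15. The calls of Sema6c, Sema4b, Efna4 and Ntn3 were lost, and Sema6d, Sema4f, Nrp1 and Epha4 passed. In this fit back IFE is 1 library, back IFE 1, so the spread comes from the other groups and the changed calls rest on that library. Nrp1 was at 11.9 CPM in back IFE 1 and 106 in back IFE 2, and Sema6d at 1.74 and 38.1. Without back IFE 2, the 9 named above were again called in the same direction at both sites, joined by Sema5a and Epha4, both lower. Among the 9, the back log2 fold changes without it were 8.34 for Sema3e, 9.51 for Slit2 and 3.01 for Robo2. They were -3.83 for Sema3c, -3.55 for Sema3f, -2.36 for Plxna1 and -2.43 for Plxnb2. The Slit2 value rests on 2 counts in back IFE 1 and depends on the fit. The calls of Epha5 and Efna1 held. Back Merkel libraries lay above back IFE 1 for 25 tested members and below for 23, beside 37.3% and 40.6% of all tested genes.

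**Figure D1:**
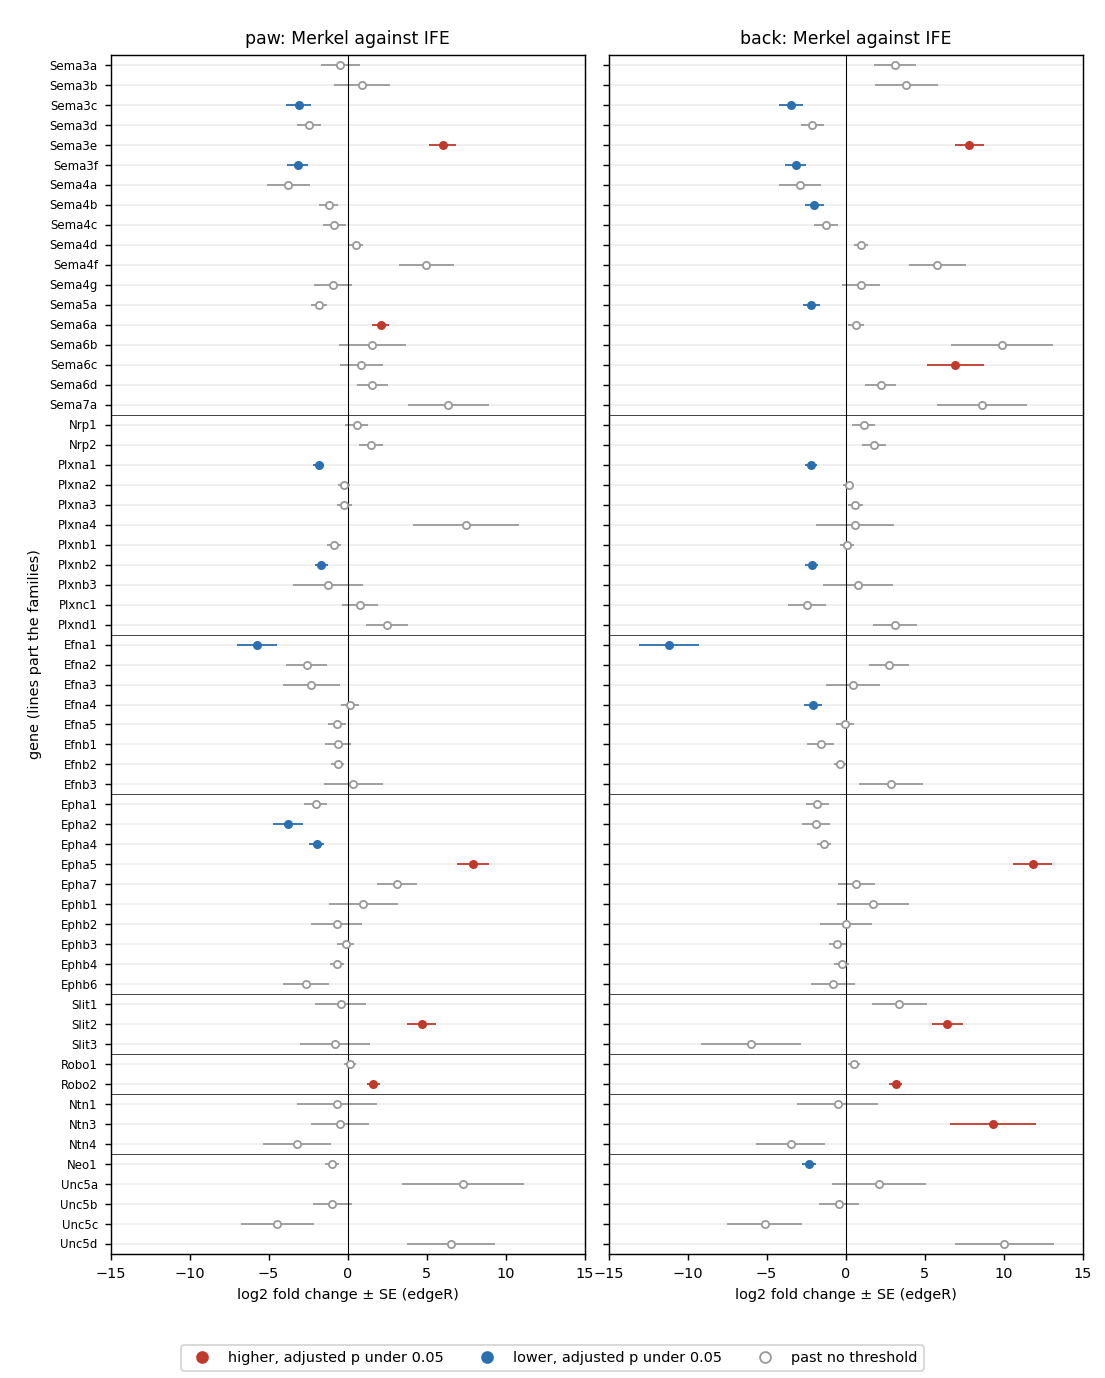
Log2 fold change from edgeR, ± SE derived from its F statistic, of the 60 tested members, Merkel against IFE, in paw (left) and back (right). Members are grouped by family, and filled points passed an adjusted p of 0.05. Sema3e, Epha5, Slit2 and Robo2 lie to the right of 0 in both panels and Sema3c, Sema3f, Plxna1, Plxnb2 and Efna1 to the left. Fitted values where a group has 0 counts depend on the fit and are not measured folds. These are Efna1, Ntn3, Sema6b, Sema7a, Slit3 and Unc5d in the back, and Unc5a and Unc5d in the paw. The same holds for Epha5 in the back and for Sema7a and Plxna4 in the paw, each with 1 count in IFE.

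The promoters of members that moved together are shown because Merkel cells are defined by Atoh1, a basic helix-loop-helix factor, and factors of that class bind the E-box CANNTG. Each sequence is the 250 bases before a transcription start in RefSeq (GRCm38.p6), 5′ to 3′ on the gene's strand, with matches to CANNTG in capitals; no binding was measured in this study. They belong to Sema3e (plus strand, chr5:14025026-14025275), Epha5 (minus strand, chr5:84417383-84417632), Robo2 (minus strand, chr16:74411826-74412075, at 1 of 3 listed starts) and, as a gene that was lower, Efna1 (minus strand, chr3:89279646-89279895, at 1 of 2 listed starts).
Sema3e: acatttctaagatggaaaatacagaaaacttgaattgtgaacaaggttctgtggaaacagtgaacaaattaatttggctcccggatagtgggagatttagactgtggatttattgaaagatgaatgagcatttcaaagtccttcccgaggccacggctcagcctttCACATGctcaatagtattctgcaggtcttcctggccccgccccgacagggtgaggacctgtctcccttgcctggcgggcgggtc
Epha5: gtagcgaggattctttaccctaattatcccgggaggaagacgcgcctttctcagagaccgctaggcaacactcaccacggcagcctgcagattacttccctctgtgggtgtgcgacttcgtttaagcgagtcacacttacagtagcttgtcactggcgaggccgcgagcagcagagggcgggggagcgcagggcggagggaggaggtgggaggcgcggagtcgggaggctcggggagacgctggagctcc
Robo2: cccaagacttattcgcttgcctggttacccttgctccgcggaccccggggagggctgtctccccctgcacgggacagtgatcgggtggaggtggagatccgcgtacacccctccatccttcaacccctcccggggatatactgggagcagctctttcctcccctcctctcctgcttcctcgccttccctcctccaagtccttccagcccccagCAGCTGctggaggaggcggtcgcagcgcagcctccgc
Efna1: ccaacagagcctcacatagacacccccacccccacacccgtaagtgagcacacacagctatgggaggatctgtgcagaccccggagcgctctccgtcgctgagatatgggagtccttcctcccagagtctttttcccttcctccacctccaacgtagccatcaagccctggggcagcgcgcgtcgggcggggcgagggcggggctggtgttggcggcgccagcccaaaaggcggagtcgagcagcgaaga
Sema3e holds 1 match, and Robo2 holds 1 match, which also reads CAGCTG. The Epha5 and Efna1 windows hold none. Among the 32841 promoter windows of this length in the table, 66.2% hold at least 1 CANNTG and 13% hold CAGCTG, so a match is common; both motifs read the same on both strands, and CAGCTG is contained in CANNTG. Promoters of 3 other members called in the same direction at both sites were searched and are not printed. Slit2 and Plxnb2 hold no match. Sema3c, which was lower, holds 2 matches, 1 of them CAGATG (in 14.4% of windows on either strand), and its window lies wholly within an annotated exon. So matches occurred among both the higher and the lower genes. GC content was 48.0% for Sema3e, 62.4% for Epha5, 65.6% for Robo2 and 64.4% for Efna1, beside a median of 52.4%. Promoters of 60 of the 70 members were in the table.

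Among the 20 semaphorins, Sema3e was the one higher in Merkel cells at both sites. It encodes a secreted semaphorin that binds Plexin-D1 directly, without a neuropilin, and lies on chromosome 5 (14025276 to 14256689, GRCm38, plus strand). Its level was 131 and 297 CPM in paw Merkel and 468 and 559 in back Merkel. In paw IFE it was 5.79 and 0.740 CPM and in back IFE 1.57 and 2.94. Every Merkel library lay above every IFE library. The log2 fold change was 6.02 ± 0.85 (SE, adjusted p = 0.00151) in the paw and 7.81 ± 0.93 (adjusted p = 0.000269) in the back. Both calls held when any 1 of the 8 libraries was left out; the paw value moved to 8.16 without paw IFE 1, 5.20 without paw IFE 2 and 5.31 without paw Merkel 2. Plxnd1, the receptor of Sema3e, was low and uneven, at 3.40 and 26.6 CPM in paw Merkel, 23.7 and 3.61 in back Merkel and 1.18 to 4.20 in IFE libraries, and passed in neither comparison.

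Other secreted semaphorins ran the other way. Sema3f, a neuropilin-2 ligand (chromosome 9, 107681500 to 107710475, minus strand), was at 98.1 and 58.8 CPM in paw IFE and 13.2 and 4.33 in paw Merkel. At the back it was at 91.0 and 47.2 CPM in IFE and 7.61 and 7.91 in Merkel cells. Merkel and IFE libraries did not overlap at either site, and the log2 fold change was -3.15 ± 0.67 at both (adjusted p = 0.0169 in the paw and 0.00874 in the back). The paw call was lost without paw Merkel 2 (-2.57, adjusted p = 0.0553) or paw IFE 1 (-2.73, adjusted p = 0.0787), and the back call without back Merkel 2 (adjusted p = 0.0515). Without paw Merkel 1 the paw value was -4.19.

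Sema3c (chromosome 5, 17574281 to 17730268, plus strand) is another secreted class 3 ligand. It was at 64.3 and 73.3 CPM in paw IFE against 8.39 and 7.56 in paw Merkel, and at 163 and 88.9 in back IFE against 2.74 and 20.2 in back Merkel. The groups did not overlap, although the back Merkel libraries stood far apart. Its log2 fold change was -3.11 ± 0.78 (adjusted p = 0.0376) in the paw and -3.46 ± 0.79 (adjusted p = 0.0128) in the back. The paw call was lost without paw Merkel 1, paw Merkel 2 or paw IFE 2 (adjusted p of 0.0562, 0.131 and 0.0588), and the back value ran from -2.67 without back Merkel 1 to -5.52 without back Merkel 2.

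Several membrane-bound semaphorins passed at 1 site. Sema6a, a transmembrane ligand of A-type plexins, was at 103 and 88.4 CPM in paw Merkel and 25.3 and 20.1 in paw IFE, with a log2 fold change of 2.08 ± 0.52 (adjusted p = 0.0374). At the back the libraries overlapped, at 53.8 and 70.2 CPM in Merkel and 56.2 and 22.8 in IFE cells (0.65 ± 0.50, adjusted p = 0.41). The paw call was lost without paw Merkel 2 (adjusted p = 0.0571), paw IFE 1 (0.127) or paw IFE 2 (0.222), and the difference between the sites did not pass (log2 1.43, adjusted p = 0.594). In the back, Sema5a fell by 2.17 and Sema4b fell by 1.98 on the log2 scale, while Sema6c rose by 6.94 (adjusted p of 0.0169, 0.0462 and 0.0242).

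Those 3 back calls depended on single libraries. Sema5a was at 44.3 and 52.2 CPM in back Merkel and 326 and 108 in back IFE. Without back IFE 1, where back IFE is the library labelled back IFE 2 alone, the value was -1.16 and the call was lost. The call was also lost without back Merkel 1 or back Merkel 2. Sema4b was at 33.5 and 21.8 CPM in back Merkel and 122 and 96.2 in back IFE, and its call was lost without any 1 of these 4 libraries (adjusted p up to 0.221). Sema6c was at 1.75 and 21.1 CPM in back Merkel and 0.0543 and 0.114 in back IFE; without back Merkel 2 the value was 4.24 (adjusted p = 0.23), and the call was lost without back IFE 1 (0.122) or back IFE 2 (0.0916). The other semaphorins passed in neither comparison with all libraries. Without the library labelled back IFE 2, Sema6d (79.0 and 106 CPM in back Merkel, 1.74 and 38.1 in back IFE) and Sema4f (14.4 and 12.4 and 0 and 0.458) passed as higher in back Merkel (adjusted p of 0.000611 and 0.0285). Among them the log2 fold change of Sema3d was -2.45 in the paw and -2.13 in the back (adjusted p of 0.0779 and 0.0715).

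Of the 11 plexins and neuropilins, the receptors for these semaphorins, Plxna1 and Plxnb2 were lower in Merkel cells at both sites and none passed as higher with all libraries. Plxna1 works with neuropilins as a receptor for class 3 semaphorins (chromosome 6, 89316314 to 89362620, minus strand). It was at 501 and 439 CPM in paw IFE and 165 and 97.7 in paw Merkel, and at 306 and 248 in back IFE and 50.0 and 69.4 in back Merkel. All IFE libraries lay above all Merkel libraries. Merkel against IFE, the log2 fold change was -1.84 ± 0.36 (adjusted p = 0.0118) in the paw and -2.22 ± 0.37 (adjusted p = 0.00224) in the back, and both calls held without any 1 of the 8 libraries. In GENCODE vM21, 10.7% of its exonic bases overlap a gene on the other strand, Gm26811, and reads of the pair cannot be told apart without strand.

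Plxnb2, a receptor for class 4 semaphorins (chromosome 15, 89155549 to 89180788, minus strand), followed the same order. It was at 202 and 183 CPM in paw IFE and 74.7 and 46.5 in paw Merkel. At the back it was at 198 and 128 CPM in IFE and 36.1 and 37.2 in Merkel cells. Again every IFE library was above every Merkel library. On the log2 scale the fold change was -1.66 ± 0.39 (adjusted p = 0.0279) in the paw, where the call was lost without paw Merkel 2, paw IFE 1 or paw IFE 2 (adjusted p of 0.129, 0.126 and 0.09), and -2.15 ± 0.40 (adjusted p = 0.00418) in the back, where it held in all 8 fits with a library left out. Basal keratinocyte markers fell with these plexins, as given above, and their part in the values was not tested.

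The other plexins and both neuropilins did not pass with all libraries. Plxnb1, a Sema4d receptor, was at 603 and 223 CPM in paw Merkel, 957 and 526 in paw IFE, 453 and 362 in back Merkel and 388 and 391 in back IFE, with log2 fold changes of -0.85 ± 0.45 (adjusted p = 0.321) in the paw and 0.06 ± 0.45 (adjusted p = 0.945) in the back. Nrp1, the co-receptor of several class 3 semaphorins, was at 97.9 and 168 CPM in paw Merkel, 103 and 74.6 in paw IFE, 134 and 126 in back Merkel and 11.9 and 106 in back IFE, so that the 2 back IFE libraries differed most. Without the library labelled back IFE 2, Nrp1 passed as higher in back Merkel (log2 3.44, adjusted p = 0.00193). Nrp2, the Sema3f co-receptor, was at 23.6 and 32.4 and 29.1 and 20.2 CPM in paw and back Merkel, above 14.2 and 5.77 and 8.52 and 5.61 in paw and back IFE, with log2 fold changes of 1.48 (adjusted p = 0.291) and 1.80 (adjusted p = 0.134).

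Among the 8 ephrins, Efna1 was an IFE transcript at both sites. It encodes a ligand of EphA2 anchored to the membrane by a lipid (chromosome 3, 89271733 to 89281142, minus strand). It was at 19.5 and 9.33 CPM in paw IFE and 0.335 and 0.184 in paw Merkel. In back IFE it was at 15.9 and 16.1 CPM, and both back Merkel libraries had 0 counts. Merkel and IFE libraries were thus fully apart. In the paw the log2 fold change was -5.72 ± 1.28 (adjusted p = 0.0264), and the call was lost without paw Merkel 2, paw IFE 1 or paw IFE 2 (adjusted p of 0.0771, 0.153 and 0.0552). In the back Efna1 was at least 125-fold lower in Merkel cells, taking 3 counts over the 2 Merkel libraries as the upper limit that 0 counts allow (adjusted p = 0.00312), and this call held in all 8 fits with a library left out.

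Efna4, a related ligand, passed in the back comparison, at 15.1 and 12.2 CPM in Merkel and 52.2 and 62.9 in IFE cells (log2 fold change -2.08 ± 0.57, adjusted p = 0.0313). The call was lost without any 1 of these 4 libraries (adjusted p up to 0.154). In the paw its libraries overlapped, at 37.0 and 26.4 CPM in Merkel and 37.4 and 19.8 in IFE cells (0.15, adjusted p = 0.919). Of its exonic bases, 10.5% overlap 4731419I09Rik on the other strand. The difference between the sites did not pass for Efna4 (log2 2.22, adjusted p = 0.466). The transmembrane ephrin Efnb2 was at 51.6 to 108 CPM in all 8 libraries and passed at neither site.

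The 14 Eph receptors included Epha5, which had the smallest adjusted p of the 60 tested members in both comparisons of Merkel with IFE cells. EphA5 is a receptor for A-type ephrins known from the nervous system (chromosome 5, 84054761 to 84417382, minus strand). It was at 13.2 and 55.0 CPM in paw Merkel and 109 and 107 in back Merkel. In paw IFE it was at 0.163 and 0.0987 CPM, from 4 and 2 counts, and in back IFE at 0.0543 and 0 CPM, from 1 and 0 counts. The Merkel libraries were all far above the IFE libraries. The log2 fold change in the paw was 7.93 ± 1.00 (adjusted p = 0.000668), and it moved from 8.60 without paw Merkel 1 to 6.57 without paw Merkel 2, with the call kept in all 8 such fits. In the back the pooled level was 4817 times as high in Merkel cells (exact 95% interval from counting alone, 864 to 190355; 2524 counts against 1), with an adjusted p of 9.9e-05.

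Epha2 and Epha4 were lower in paw Merkel cells. Epha2, an EphA receptor that binds Efna1, was at 36.8 and 72.0 CPM in paw IFE and 6.81 and 1.01 in paw Merkel. Its log2 fold change was -3.78 ± 0.95 (adjusted p = 0.0389). At the back Epha2 was at 13.2 and 21.2 CPM in IFE and 5.17 and 4.01 in Merkel cells. These libraries did not overlap, and Epha2 did not pass (-1.90, adjusted p = 0.172). Epha4, which binds ephrins of both types, was at 74.1 and 114 CPM in paw IFE and 24.1 and 24.0 in paw Merkel (-1.96 ± 0.48, adjusted p = 0.0339), and at 164 and 78.8 in back IFE and 38.8 and 54.9 in back Merkel (-1.37, adjusted p = 0.0721). Without the library labelled back IFE 2, Epha4 passed as lower in the back (-1.81, adjusted p = 0.0442). Both paw calls were lost without paw Merkel 2 (adjusted p of 0.0901 and 0.102 for Epha2 and Epha4) or paw IFE 2 (0.249 and 0.211); without paw Merkel 1 the Epha2 value was -5.76. Of the B-type receptors none passed, and Ephb3 and Ephb4 lay at 20.3 to 141 CPM in all libraries.

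The Slits and Robos showed a ligand and a receptor higher together in Merkel cells. Slit2 encodes a large secreted ligand of Robo1 and Robo2 (chromosome 5, 47983138 to 48307733, plus strand). It was at 57.1 and 61.8 CPM in paw Merkel and 88.3 and 80.7 in back Merkel, against 2.49 and 2.17 in paw IFE and 0.109 and 1.79 in back IFE. The Merkel libraries of a site lay close together and did not overlap IFE. The log2 fold change was 4.67 ± 0.92 (adjusted p = 0.0117) in the paw and 6.43 ± 1.00 (adjusted p = 0.00149) in the back. Both calls held without any 1 of the 8 libraries. The back value was 5.55 without back IFE 1 and 9.51 without back IFE 2. The latter rests on 2 counts in back IFE 1 and depends on the fit. Slit1 and Slit3 passed at neither site and were at most 6.25 CPM.

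Robo2 (chromosome 16, 73891839 to 74411825, minus strand) was at 126 and 122 CPM in paw Merkel and 54.7 and 25.5 in paw IFE. At the back the gap was wider, at 321 and 369 CPM in Merkel and 42.7 and 34.7 in IFE cells. Merkel libraries were above IFE libraries at both sites. Fold changes on the log2 scale were 1.63 ± 0.41 (adjusted p = 0.0378) in the paw and 3.16 ± 0.43 (adjusted p = 0.000677) in the back, and the difference between the 2 did not pass (-1.53, adjusted p = 0.485). The paw call was lost without paw Merkel 2, paw IFE 2, back Merkel 1 or back Merkel 2 (adjusted p of 0.0649, 0.319, 0.0513 and 0.0551); the back call held in all 8 such fits. Its relative Robo1 was at 127 to 279.7 CPM in all 8 libraries and passed at neither site (log2 0.15 and 0.54, adjusted p of 0.875 and 0.365).

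Netrins were scarce in every group, and their receptor neogenin was lower in back Merkel cells. Ntn3 was at 2.13 and 6.64 CPM in back Merkel and had 0 counts in both back IFE libraries, at least 61.1-fold higher by the same limit of 3 counts (adjusted p = 0.0448), but the call was lost when any 1 of 6 libraries was left out (adjusted p up to 0.198). In the paw Ntn3 was at 0.288 and 1.57 CPM in Merkel and 1.87 and 0.691 in IFE cells, with overlap. Neo1, the neogenin gene (chromosome 9, 58874687 to 59036441, minus strand), was at 52.4 and 45.3 CPM in back Merkel and 190.4 and 297 in back IFE. These libraries were well apart, and the log2 fold change was -2.32 ± 0.46 (adjusted p = 0.00598), kept in all 8 fits with a library left out (-1.96 without the library labelled back IFE 2). In the paw, Neo1 was at 199 and 77.4 CPM in Merkel and 279 and 278 in IFE cells (-1.01, adjusted p = 0.215). Dcc had too few counts to be tested, and no Unc5 receptor passed.

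**Figure D2:**
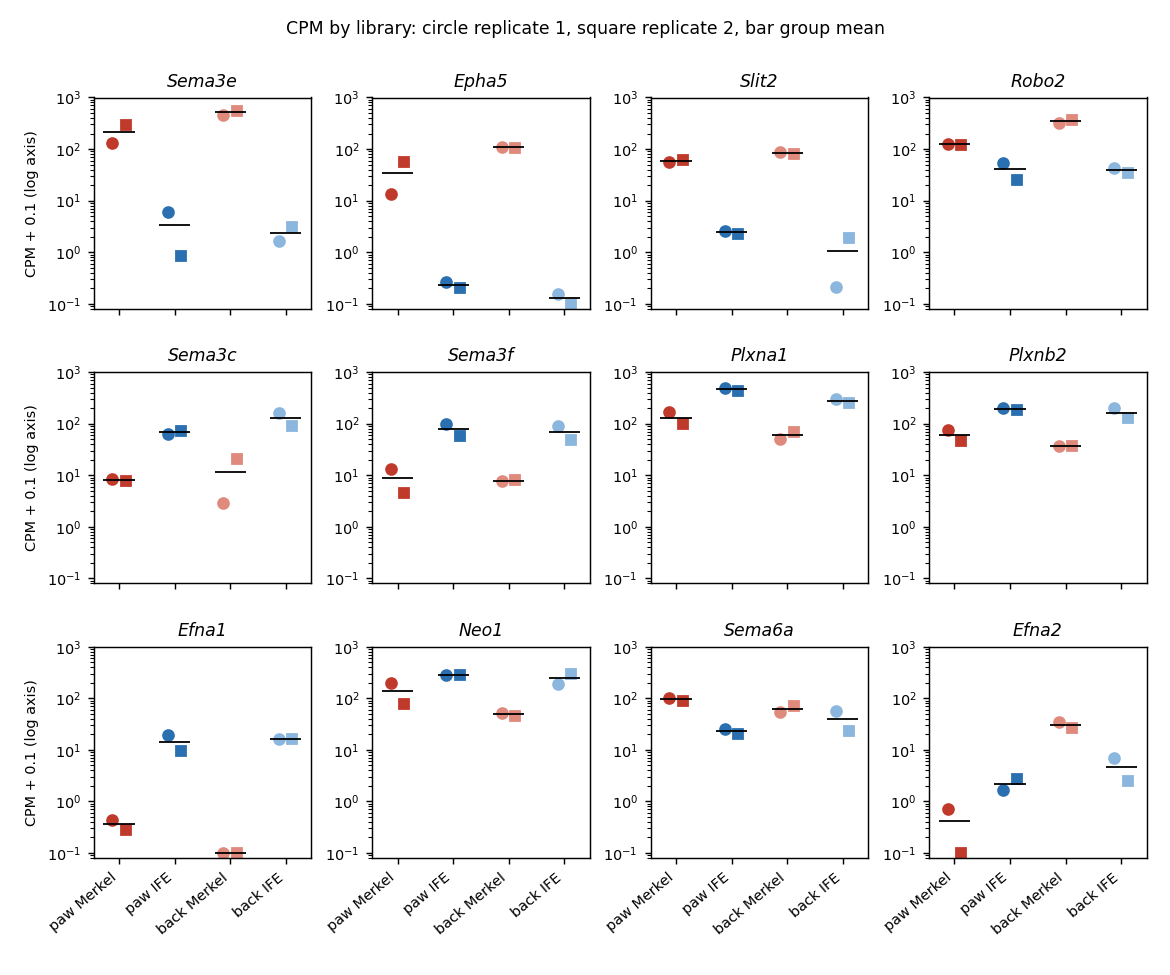
CPM plus 0.1 on a log axis for 12 members in the 4 groups; circles are replicate 1, squares replicate 2, and bars the mean of the 2 libraries. Sema3e, Epha5, Slit2 and Robo2 are high in Merkel libraries of both sites, Sema3c, Sema3f, Plxna1, Plxnb2 and Efna1 in IFE libraries, and Efna2 is highest in back Merkel.

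Levels of different genes were compared only by deposited FPKM, which divides by transcript length. Within the semaphorins, Sema3e ranked highest in Merkel cells (15.1 and 36.6 FPKM in the paw, 57.8 and 71.2 in the back), and Sema4b, a membrane-bound class 4 ligand, ranked highest in IFE cells (48.3 and 19.6 in the paw, 46.5 and 37.3 in the back). Among the receptors of semaphorins, Plxnb1 ranked first in all 4 groups, with library values from 46.2 to 137 FPKM. Efna4 was the most abundant ephrin in paw Merkel (34.2 and 29.6 FPKM), paw IFE (33.6 and 19.0) and back IFE (49.4 and 58.8), while Efna2 led in back Merkel (29.2 and 24.1).

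Ephb4, a receptor for the B-type ephrin Efnb2, was the most abundant Eph receptor in all 4 groups, at 12.5 to 44.3 FPKM. Slit2 led the Slits in Merkel cells, with means of 3.74 FPKM in the paw and 6.85 in the back, whereas in IFE no Slit reached a mean of 1 FPKM. Robo1 led the Robos in the paw groups and back IFE, and Robo2 led in back Merkel (34.5 and 33.8 FPKM). Neo1 led the netrin receptors in all groups, at 6.96 to 38.3 FPKM, while in IFE the most abundant netrin, Ntn4, reached 1.91 to 2.70 FPKM. The order of members with close values, such as Sema3e and Sema4d in paw Merkel (means of 25.8 and 23.1 FPKM), did not exceed the spread between libraries.

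**Figure D3:**
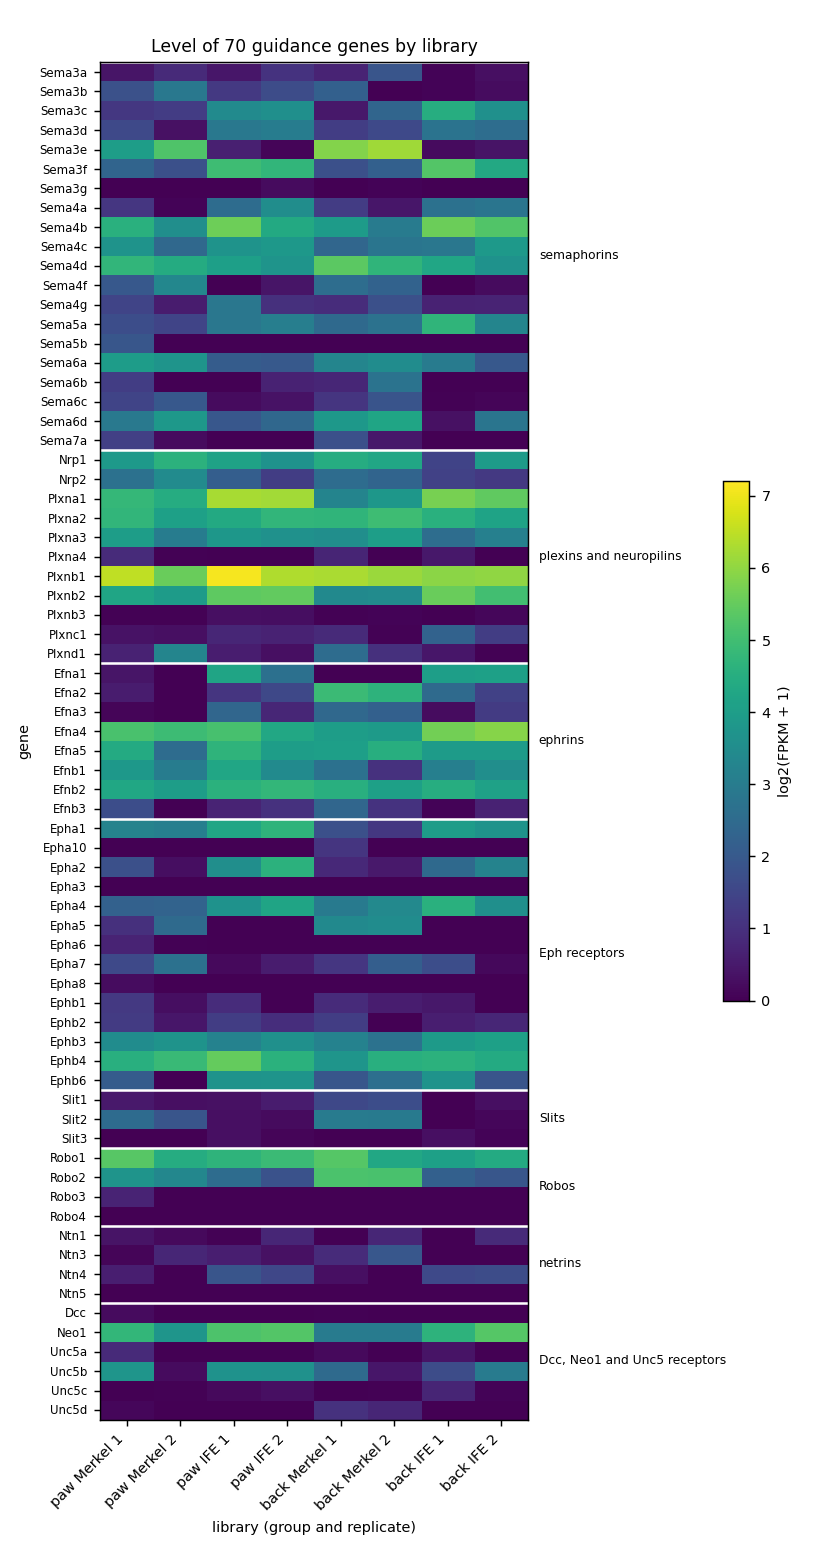
Deposited FPKM of all 70 members as log2(FPKM + 1), with the 8 libraries in columns and the genes in rows by family; white lines part the families. Plxnb1 is bright in all columns, Sema3e in the Merkel columns, and Robo3, Robo4, Dcc, Epha3 and Ntn5 are dark nearly everywhere.

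The second axis of the design, paw against back within a cell type, gave no guidance gene past the threshold. Between paw and back Merkel cells 0 members passed, where 0.185% of all tested genes did (0.178% higher and 0.0066% lower); 7 members were under an unadjusted p of 0.05, DESeq2 called 2 (Efna2 and Robo2) and limma-trend 0, and edgeR called 2 without paw Merkel 1 and 1 without paw Merkel 2. Between paw and back IFE cells 0 members passed, where 0% of all tested genes passed; without the library labelled back IFE 2, 0 members passed and 67 genes did (0.41%). With all libraries 4 were under an unadjusted 0.05, and DESeq2 and limma-trend called 0. Paw libraries lay fully above back libraries for 8 tested members and below for 11 in Merkel cells (18.2% and 17.2% of all tested genes), and for 21 and 5 in IFE cells (20.2% for either direction). Without the library labelled back IFE 2 the IFE counts were 28 and 13 (39.7% and 36.1% of all genes). For the difference between the sites in the Merkel to IFE change, 0 members passed (0% of all genes). Under an unadjusted 0.05 were 8 members, DESeq2 called 2 (Efna2 and Ntn3) and limma-trend 0. Over all 15151 tested genes, 1550 were under an unadjusted 0.05 between the Merkel groups, 643 between the IFE groups and 1365 for this difference. DESeq2 calls over all genes are not given here for these comparisons. Without the library labelled back IFE 2, 0 members and 41 genes (0.251%) passed for this difference.

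Efna2, a lipid-anchored ephrin, had the smallest adjusted p between the Merkel groups. It was at 0.623 and 0 CPM in paw Merkel and 34.3 and 26.5 in back Merkel, with 1.59 and 2.57 in paw IFE and 6.84 and 2.40 in back IFE. The Merkel groups did not overlap, and back Merkel was the highest of the 4 groups. The log2 fold change of paw against back Merkel was -6.47 ± 1.51 (adjusted p = 0.143), and -6.46 without the library labelled back IFE 2. Without paw Merkel 1, paw Merkel is paw Merkel 2 alone, which has 0 counts of Efna2. The fitted value of -12.05 in that case depends on the fit and is not a measured fold. The difference between the sites in the Merkel to IFE change was -5.32 (adjusted p = 0.449), and -4.75 (adjusted p = 0.56) without the library labelled back IFE 2. Robo2 was lower (log2 -1.48, adjusted p = 0.218) and Neo1 higher (1.50, adjusted p = 0.265) in paw than in back Merkel, both short of the threshold. Between the IFE groups, Sema6c had the smallest unadjusted p with all libraries (0.0115, log2 5.03, adjusted p = 1). Without the library labelled back IFE 2 it was at log2 5.63, and other members ranked ahead of it by p. These included Nrp1 (log2 2.89), Sema6d (3.62) and Slit2 (4.33), higher in paw IFE, and Sema5a (-2.05), lower. In that fit Sema6c has 1 count and Slit2 has 2 counts in back IFE.

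Inside the cell, guidance receptors act through GTPase regulators, kinases and collapsin response proteins, and 51 such effectors were listed. Of these (50 tested), 11 passed higher and 1 lower in the paw (median log2 0.24), and 13 passed higher and 3 lower in the back (median 0.49), beside medians over all tested genes of -0.04 and -0.06. Over all tested genes, 4.28% passed higher and 1.93% lower in the paw, and 7.99% and 7.45% in the back. Srgap1, a GTPase-activating protein that binds Robo, was at 275 and 728 CPM in paw Merkel, 18.9 and 13.8 in paw IFE, 320.2 and 525 in back Merkel, and 16.7 and 15.8 in back IFE. Its log2 fold changes were 4.94 (adjusted p = 0.00021) and 4.70 (adjusted p = 0.000177). Crmp1, a cytosolic mediator of semaphorin signals, rose by 6.94 and 8.57 on the log2 scale (adjusted p of 0.000293 and 7.94e-05), and Fyn, a kinase downstream of plexins and ephrins, by 4.18 and 4.58 (adjusted p of 0.000413 and 0.000155). Limk2, a kinase that regulates actin turnover, was lower at both sites, with log2 values of -1.66 and -2.14 (adjusted p of 0.0289 and 0.00438).

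Of 39 other guidance cues and co-receptors (36 tested), 7 passed higher and 2 lower in the paw (median log2 -0.06), and 9 higher and 3 lower in the back (median 0.02), to be read beside the same shares (4.28% and 1.93%, 7.99% and 7.45%) and medians (-0.04 and -0.06) of all tested genes. Nfasc, an axonal cell adhesion molecule, was at 392 and 837 CPM in paw Merkel and 1046 and 1244 in back Merkel, against 0.774 and 0.79 in paw IFE and 1.57 and 0.687 in back IFE. Its log2 fold changes were 9.61 (adjusted p = 6.18e-06) and 10.00 (adjusted p = 5.19e-06). Nrcam, a neuropilin partner of the same family, rose by 8.27 and 8.05 (adjusted p of 0.000128 and 9.18e-05). Chl1, also of this family, fell by 2.11 and 3.23 (adjusted p of 0.0154 and 0.000883). Of the 6 sensory neuron markers, only Avil and Pou4f1 passed, both higher in Merkel cells; the summed list was 188 to 726 CPM in Merkel and 2.71 to 9.03 in IFE libraries, and Prph and Scn9a were at 0 in all 4 Merkel libraries and Scn10a at 0 to 0.277 CPM.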

How the data were processed

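Gene counts for 24538 genes in each of the 8 libraries were deposited by the authors, as whole numbers without normalization, together with a deposited FPKM table (fragments scaled by the authors to transcript length and library size) of 24453 genes that lacks 85 of the counted genes but holds all 70 members. Per the submitters' processing notes, the mm10 build and TopHat2 2.0.13, Cufflinks 2.2.1, featureCounts (Subread 1.4.6) and DESeq2 1.6.3 took part; the annotation, the strand setting and the step each tool served are not given in the sources used here. Per the labels' protocols, RNA was amplified before sequencing, which can widen the spread of low genes.

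Counts were scaled by TMM and tested with edgeR 4.0.16 (quasi-likelihood F test, R 4.3.3) in a fit of all 8 libraries with a mean for each group (4 residual degrees of freedom); filterByExpr kept 15151 genes, and Benjamini-Hochberg adjustment ran over all of them with a threshold of 0.05. CPM values are TMM-scaled. Each SE is the absolute log2 fold change divided by the square root of its F statistic. Where a group had 0 counts, the fold is a lower bound against 3 counts over its 2 libraries, and bounds and intervals cover counting error only. The members and gene lists were chosen with earlier results of these data known. Full values are given for up to 3 members per family and comparison that passed with at least 5 CPM in the higher group, by smallest adjusted p; the member with the highest FPKM of each family and group, and the member with the smallest p where none passed, are also named, and other genes in the text were picked after their values were seen. Alternatives were RLE scaling, no filter, DESeq2 1.42.0, limma-trend (limma 3.58.1), the 4 libraries of a comparison alone, a replicate block, limma on log2(FPKM + 1) and log2(FPKM + 0.1), and leaving out each library. The scripts were tested on simulated counts. Positions are from GENCODE vM21 and promoters from RefSeq (GRCm38.p6).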

Additional observations from a re-analysis of the deposited data

How the results depend on the processing

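With 2 libraries a group, the paw count was the least stable. The 12 members called in the paw (941 genes over the whole table) became 19 with no filter on low counts (1920 genes) and 19 with DESeq2 (2364 genes), 5 when only the 4 paw libraries were fitted, and 4, 3 and 3 with limma on FPKM at a pseudocount of 1, at 0.1 and at 1 with no filter; leaving out each library in turn gave 4 to 21. The 15 called in the back (2338 genes) became 28 with DESeq2 (4215 genes), and 9 to 22 with a library left out. The 0 between paw and back Merkel cells became 3 with no filter and 2 with DESeq2, and 0 to 2 with a library left out. The 0 between the IFE groups stayed 0 under every alternative that was run, and the 0 for the difference between sites became 2 with DESeq2. Where no count over the whole table is given, here or below, a change in the members cannot be told from one over all genes. The causes of these shifts were not tested.

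Of the 30 named fold changes none changed sign under any alternative. All 30 kept their side of the threshold with RLE scaling and with limma-trend. With limma on FPKM 12 lost their call at either pseudocount and 14 without its filter, and 7 lost it with 4 libraries, where 29 could be fitted. Among the 30, Efna2 between the Merkel groups, Sema6c between the IFE groups and Ntn3 for the difference between sites had no call to lose. On FPKM the median of all genes shifted by 0.16 in the back comparison, by -0.12 to -0.13 between Merkel sites and by -0.17 to -0.19 for the difference between sites. Libraries with the same replicate number did not deviate together (correlations of -0.0427 to 0.0845), so the numbers are not taken to pair them. A replicate block gave 13 members in the paw and 16 in the back, 14 of them among the 15, and the Ntn3 call in the back was lost (adjusted p = 0.0697).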

Other observations

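The 10 members with too few counts to be tested were mostly seen in single libraries. Sema5b, a transmembrane semaphorin, had 150 counts (7.19 CPM) in paw Merkel 1, and Robo4, a Robo receptor known from endothelium, had 89 counts (8.21 CPM) in paw Merkel 2. In paw Merkel 1, Robo3 had 50 counts, Epha6 49, Dcc 44 and Epha8 10. Epha10 had 31 counts in back Merkel 1 and Sema3g 8 in paw IFE 2, Ntn5 had 1 count in all and Epha3 had 0 in every library. In the deposited FPKM table Sema5b was at 2.77 in paw Merkel 1, whereas Robo4 was listed at 0 in every library, including the one with 89 counts.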
